A study of Mus musculus with 5 samples.

Results

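The genes described here are 32 known targets of the transcription factor p53, sorted by what their products do: 11 act in apoptosis, 7 in cell cycle arrest, 7 in metabolism, 4 in DNA repair and 3 in signalling. They were taken by name from the 39179 genes listed in the count table, and all 32 were found. RNA was sequenced from TER119-positive erythroid cells sorted from the fetal liver of C57BL/6 mouse embryos at 14.5 days post conception. The 3 control libraries came from embryos of genotype Csnk2b+/+ Vav+/Cre and the 2 KO libraries from embryos of genotype Csnk2bfl/fl Vav+/Cre, so both groups carry the Cre transgene, whose Vav1 promoter is active throughout the blood-forming system and not only in erythroid cells. Csnk2b encodes the regulatory subunit of the protein kinase CK2. The titles number the libraries as embryos and do not say if a library is 1 embryo or several pooled. It is thus not known if the p-values reflect variation between single embryos or between pools. In bulk RNA, fewer cells of a type and less RNA per cell cannot be told apart.

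p53 is kept scarce in unstressed cells by the ubiquitin ligase Mdm2 and is stabilised by DNA damage, ribosome stress and other insults. It then binds response elements near its targets and raises their transcription. Its targets span opposing outcomes, from pausing the cell cycle and repairing DNA to triggering death through mitochondria or death receptors, and erythroid precursors are known to be sensitive to p53 activity.

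A p53 response element is a 20-base site built from 2 copies of a 10-base unit, each with C, then A or T at both next positions, then G at its centre, and the consensus reads the same on both strands. The elements are shown because they are the sequence by which p53 recognises its targets, and many lie outside the window searched here. RefSeq promoter windows (GRCm38.p6, 300 bases, from 250 before to 50 after a start) were matched for 25 of the 32 genes. Pmaip1, Zmat3, Tnfrsf10b, Perp, Rrm2b, Xpc and Ddb2 had no window. With all 4 central letters of each unit intact and at most 2 mismatches elsewhere, 1 of the 25 genes (4%) held a match, beside 0.189% of the 27025 genes with a window. With at most 3 mismatches, a limit chosen after seeing the data, 4 of 25 (16%) held a match, beside 0.673% of all genes. Of the 34 further genes of the p53 pathway with a window, 4 (11.8%) held a match at this limit. Among these 4 was Cdkn1a, which rose in KO, and the others, Trp53 among them, did not pass the test. The matches are printed with 20 bases on either side, the 20-base match in capitals, on the strand of the gene, with the known element of Cdkn1a, the gene for the cell cycle inhibitor p21, for comparison. For Aen the match lies in an exon and only the match is printed.
Cdkn1a: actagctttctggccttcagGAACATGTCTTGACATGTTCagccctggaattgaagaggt
Rps27l: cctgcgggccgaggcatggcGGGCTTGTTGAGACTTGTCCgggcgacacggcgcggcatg
Bbc3: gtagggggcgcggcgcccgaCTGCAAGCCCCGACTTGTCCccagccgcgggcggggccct
Tigar: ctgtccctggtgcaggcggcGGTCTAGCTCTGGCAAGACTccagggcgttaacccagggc
Aen: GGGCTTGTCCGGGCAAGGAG
The Cdkn1a stretch is chr17:29090908-29090967 (plus strand, outside the gene in GENCODE M21), with its match 51 bases before the upstream of its 2 starts and 1 mismatch; the window of the other start held no match. The Rps27l stretch is chr9:66946276-66946335 (plus strand), within an intron of the longer transcripts, with 1 mismatch and its match 117 bases before a second start. The Bbc3 stretch is chr7:16309466-16309525 (plus strand), also intronic to a longer transcript, with 3 mismatches and its match 97 bases before a start. The Tigar stretch is chr6:127109726-127109785 (minus strand), outside the gene, with 3 mismatches and its match 213 bases before the start. The Aen match is chr7:78895937-78895956 (plus strand), with 3 mismatches. A match describes letters and is not evidence of binding. Of the 4 members with a match, Bbc3, Aen and Tigar rose in the KO libraries and Rps27l did not pass the test. Of the 18 tested members with a window and no match, 9 rose. These 18 include Plk3, Ddit4, Eda2r and Ak1, which met the filter on low counts only through their KO values. No comparison is drawn from these counts.

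The libraries held 13187094 to 15366021 counts. Values are CPM, counts scaled to library size with TMM factors, and 1 CPM corresponds to 13.01 to 15.54 counts. Csnk2b ranged from 169 to 186 CPM in the controls and was 112 and 95.6 CPM in the KO libraries, 1.74-fold lower (edgeR adjusted p = 0.00177). All 10 erythroid markers examined were detected, none passed the test in edgeR, and their summed level was 46920 to 56710 CPM in controls and 40970 to 51250 CPM in KO. Of 10 macrophage markers 3 were lower (Adgre1, C1qc and Vcam1), with sums of 102 to 114 CPM in controls and 80.2 and 82.9 CPM in KO. The part of macrophage RNA in the results below was not tested. Among 39 markers of hepatocytes, granulocytes, megakaryocytes, lymphocytes, mast cells, endothelium and stroma, Col1a1 was higher and no other passed, and Cd3e and Fcer1a were at 0 in every library. The granulocyte sum (536 to 775 CPM in controls, 611 and 735 CPM in KO) and the hepatocyte sum (221 to 351 CPM, and 261.5 and 312 CPM) overlapped between groups. Both KO libraries were below the controls in the lymphocyte sum (5.64 to 6.24 CPM in controls, 5.38 and 4.79 CPM in KO) and above them in the mast cell sum (22.6 to 31.97 CPM, and 34.4 and 32.1 CPM). Of the tested mast cell markers only Hdc was above all controls in both KO libraries (16.5 to 23.2 CPM, and 27.7 and 26.2 CPM). The means of Cpa3 (6.71 CPM in controls, 5.23 CPM in KO) and Ms4a2 (1.07 and 0.676 CPM) were lower in KO. KO replicate 2 stood apart in the megakaryocyte sum, at 98.2 CPM beside 67.2 in KO replicate 1 and 63.7 to 70.5 in controls, and in the endothelial and stromal sum, at 61.8 CPM beside 40.4 and 44.4 to 48.3. Of single megakaryocyte markers, the platelet gene Pf4 was at 20.9 CPM in KO replicate 2 and 8.38 CPM in KO replicate 1. Itga2b was at 57.5 and 33.8 CPM in that order. Gp9 went the other way, at 10.04 and 15.4 CPM. Ppbp (4.47 and 4.61 CPM) and Gp5 (4.795 and 4.61 CPM) were nearly level. The collagen gene Col3a1 was at 14.3 CPM in KO replicate 2 and 4.84 CPM in KO replicate 1, and Col1a1 at 12.1 and 4.38 CPM. The endothelial markers did not share this rise. Cdh5 (11.7 to 14.8 CPM in controls, 9.45 and 10.3 CPM in KO replicates 1 and 2) was below every control in both. So was Stab2 (15.8 to 19.6 CPM, and 13.3 and 14.9 CPM). Pecam1 overlapped between groups (7.39 to 9.78 CPM, and 8.22 and 9.59 CPM). Over all genes the KO pair also differed further beyond counting error (chi-square per degree of freedom of 17.7) than the control pairs (4.30 to 6.35). The part of these cells' RNA in the results below was not tested, and members are given without each KO library where that changes a call. Control replicate 3 held 147 to 454 counts of each of 4 genes of the Y chromosome (Ddx3y, Eif2s3y, Kdm5d and Uty), where other libraries held at most 2. It also held the X-inactivation RNA Xist at 547 CPM. Fits without this library are therefore given where they change the call of a member.

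Many of the p53 targets were higher in the KO cells. Of the 32 genes, 15 rose, none fell, 14 did not pass and 3 were removed by the filter on low counts. Differences between the function groups were not tested, and their counts below are descriptions. Across all 13000 genes tested 5.15% were called higher and 1.83% lower. The genes that rose were Bbc3, Pmaip1, Aen and Tnfrsf10b in apoptosis, Plk2, Plk3, Gadd45a, Psrc1 and Zmat3 in arrest, Sesn2, Ddit4, Tigar and Fdxr in metabolism, and Phlda3 and Eda2r in signalling. None of the 4 repair genes passed. The median log2 fold change of the 29 tested members was 0.56, against 0.01 for all genes tested. Folds among the 15 ran from 1.48 to 8.09, 8 of them at least 2-fold. A member whose controls lie under the filter on low counts (0.693 CPM in at least 2 libraries) could only enter through high KO values. This applies to Plk3, Ddit4, Eda2r and Ak1, so the counts over tested members describe those members and support nothing about the list. Leaving out these 4, 12 of 25 rose, and the median log2 fold change of the 25 was 0.54.

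**Figure D1:**
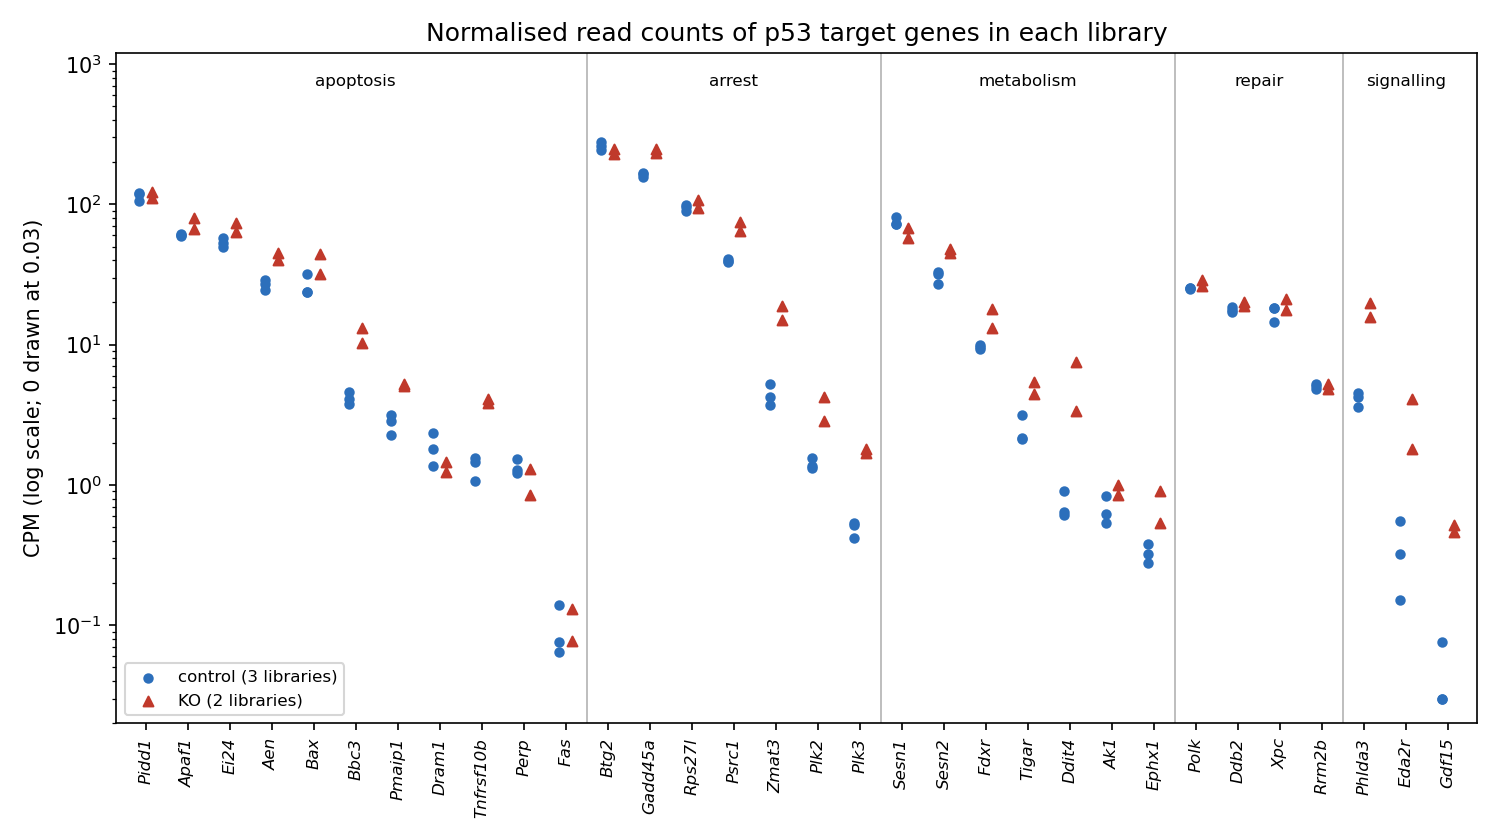
CPM (log axis) of each of the 32 p53 targets in the 3 control libraries (circles) and 2 KO libraries (triangles), grouped by function and ordered by control mean; the zero values of Gdf15 are drawn at 0.03. Both Phlda3 values in KO, 15.6 and 19.9 CPM, lie above its controls at 3.60 to 4.51 CPM, whereas the 5 values of Rrm2b lie between 4.80 and 5.28 CPM.

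Within the apoptosis group 4 of 11 genes rose, namely 2 BH3-only genes, a death receptor gene and a nuclease gene. Bbc3 encodes PUMA, a BH3-only protein that frees BAX and BAK to open the mitochondrial membrane. Its controls (replicates 1, 2 and 3, here and below in that order) were at 3.80, 4.57 and 4.09 CPM and its KO libraries (1 and 2) at 13.1 and 10.3 CPM. The groups were well apart, with a 2.81-fold rise (log2 fold change 1.49 ± 0.16 (SE), edgeR adjusted p = 0.00169). Pmaip1 encodes NOXA, a BH3-only protein that neutralises MCL1. Its values were 3.15, 2.29 and 2.84 CPM in controls and 5.07 and 5.25 CPM in KO. That was a 1.86-fold rise (edgeR adjusted p = 0.0193), and the call was lost without any 1 control, without KO replicate 2, without the filter and with DESeq2 (adjusted p 0.0185 to 0.0834 over the alternatives).

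Tnfrsf10b, the mouse receptor for the death ligand TRAIL, was at 1.54, 1.07 and 1.46 CPM in controls and at 4.07 and 3.82 CPM in KO. The KO libraries agreed closely and the rise was 2.87-fold (edgeR adjusted p = 0.00318). Aen, an exonuclease that degrades DNA in dying cells, was at 27.0, 29.0 and 24.5 CPM in controls and at 40.3 and 45.0 CPM in KO, a 1.59-fold rise (edgeR adjusted p = 0.00529). Fas, the other death receptor of the group, had 1, 1 and 2 counts in controls and 1 and 2 in KO and was removed by the filter. Fitted without the filter, Fas had an edgeR adjusted p of 0.977, and a difference was not detectable at this depth.

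Bax, Apaf1 and Ei24, with control levels of 16.8, 6.69 and 10.9 CPM per kilobase of exon against 1.96 for Bbc3 and 1.01 for Pmaip1, did not pass. Bax, which forms the pore in the outer mitochondrial membrane, was at 23.7, 31.8 and 23.9 CPM in controls and at 32.0 and 44.4 CPM in KO. Control replicate 2 and KO replicate 1 were almost level, and the log2 fold change of 0.54 had a 95% interval of 0.16 to 0.91 and an edgeR adjusted p of 0.0868. Bax did pass with DESeq2 (adjusted p = 0.0347), with the replicate number as a block (0.0257) and without KO replicate 1 (0.0111), and its adjusted p reached 0.439 without KO replicate 2. Apaf1, the scaffold of the apoptosome, was at 59.6 to 61.2 CPM in controls and at 79.3 and 67.3 CPM in KO (edgeR adjusted p = 0.0902). Ei24, an endoplasmic reticulum membrane protein gene, was at 49.7 to 57.4 CPM in controls and at 73.7 and 63.0 CPM in KO (edgeR adjusted p = 0.058). For both, each KO value was above each control, an arrangement found in 21.9% of the genes tested. Without KO replicate 2 both passed, Apaf1 with an edgeR adjusted p of 0.0175 and Ei24 with 0.0219, and Ei24 also passed with the block (0.0285). The adjusted p over the alternatives reached 0.239 for Apaf1 and 0.19 for Ei24.

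Pidd1, which assembles the caspase-2 activating platform, had the highest level per kilobase of the group, 25.3 CPM per kb in controls. It was at 106, 120 and 118 CPM in controls and at 123 and 111 CPM in KO, with a fold change of 1.02 and a 95% interval of 0.895 to 1.16. Perp, a membrane protein of epithelial junctions, and Dram1, a lysosomal protein of autophagy, were both under 3 CPM and overlapped between groups. Perp was at 1.22 to 1.53 CPM in controls and at 0.846 and 1.30 CPM in KO. Dram1 was at 1.37 to 2.36 CPM in controls and at 1.46 and 1.23 CPM in KO.

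In the arrest group 5 of 7 genes rose. Zmat3, an RNA-binding regulator of splicing, was at 3.73, 4.27 and 5.201 CPM in controls and at 15.1 and 18.9 CPM in KO. It had the highest fold of the group, 3.86 (log2 fold change 1.95 ± 0.17 (SE), edgeR adjusted p = 0.000606). Plk3, a polo-like kinase of the stress response, was at 0.515, 0.533 and 0.416 CPM in controls and at 1.69 and 1.81 CPM in KO. These are 6 to 8 counts per control library and 22 and 28 per KO library, and the rise was 3.56-fold (edgeR adjusted p = 0.00345). Its relative Plk2 was at 1.54, 1.37 and 1.32 CPM in controls and at 4.23 and 2.85 CPM in KO. The 2.47-fold rise of Plk2 (edgeR adjusted p = 0.012) missed the threshold without control replicate 1 or 2 and without the filter (adjusted p 0.00371 to 0.0682 over the alternatives).

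The remaining 2 genes that rose had smaller folds. Gadd45a, a stress sensor that binds PCNA and inhibits the mitotic kinase CDK1, was at 156, 166 and 166 CPM in controls and at 231 and 249 CPM in KO. Its 1.48-fold rise (log2 fold change 0.56 ± 0.07 (SE), edgeR adjusted p = 0.00271) was the lowest fold of the 15, a difference in mean level of 77.7 CPM. E230016M11Rik lies on the opposite strand and shares 337 exonic bases with Gadd45a; it had at most 37 counts in a library. Psrc1, a microtubule-binding protein of the spindle, was at 38.6, 40.5 and 39.2 CPM in controls and at 74.6 and 64.5 CPM in KO. Its controls differed little from each other, and it rose 1.76-fold (edgeR adjusted p = 0.00138).

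Btg2 and Rps27l, which with Gadd45a had the highest levels per kilobase of the group, did not pass. Btg2, an antiproliferative partner of the mRNA deadenylase complex and a classic p53 target, was at 243, 260 and 278 CPM in controls and at 247 and 227 CPM in KO. Its groups overlapped, and the 95% interval of its fold change was 0.801 to 1.04. Rps27l, a ribosomal protein paralogue, was at 96.3, 90.1 and 98.5 CPM in controls and at 94.1 and 108 CPM in KO, with an interval of 0.934 to 1.22. Rps27l holds the promoter match with the fewest mismatches of any member, shown above beside that of Cdkn1a. Of its 50-base words 11.2% also occur in transcripts of other genes, so some of its reads may be assigned elsewhere.

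**Figure D2:**
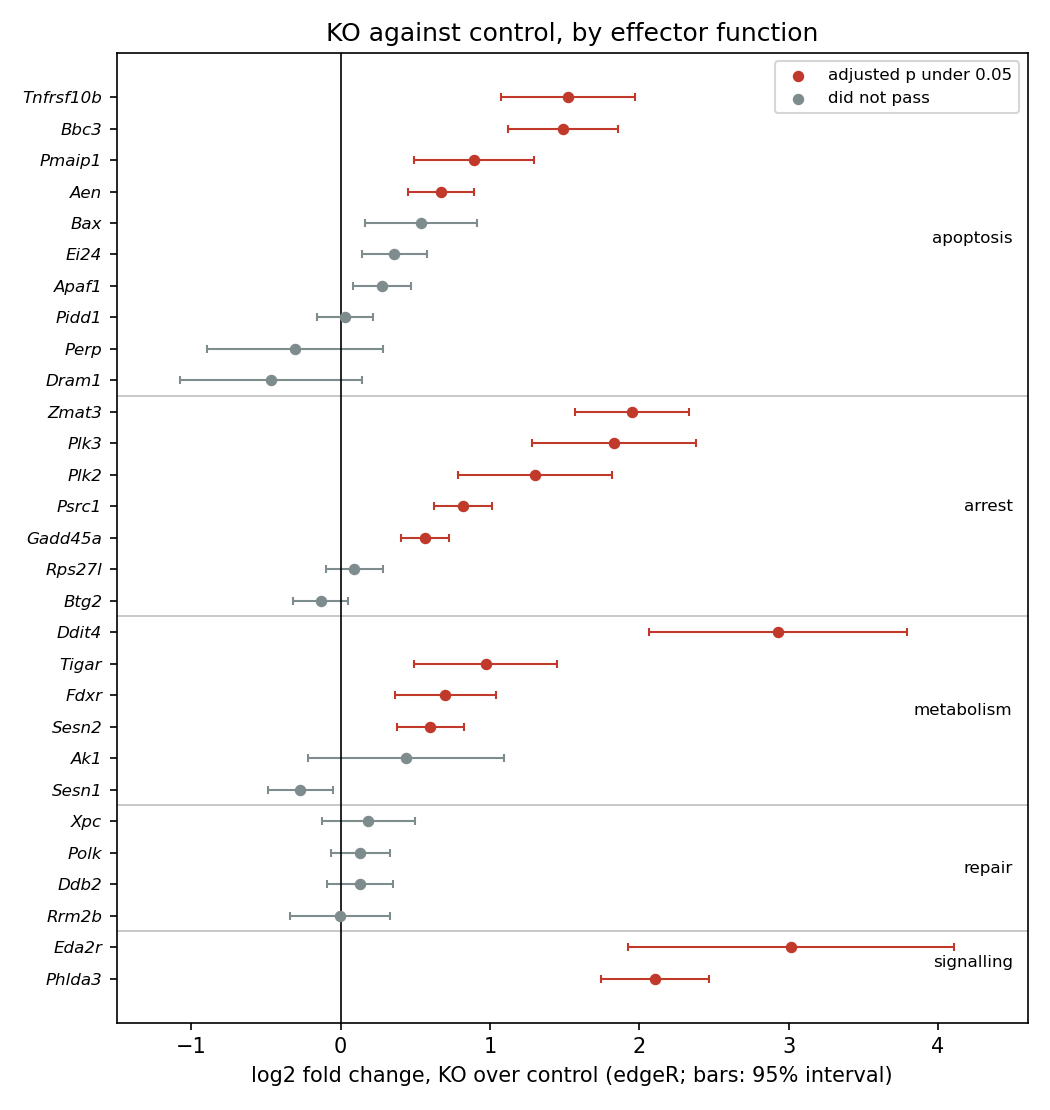
Log2 fold change of KO over control (edgeR, 3 control and 2 KO libraries) with 95% intervals for the 29 tested p53 targets, grouped by function; red marks adjusted p under 0.05. The 4 repair genes lie between -0.01 and 0.18, and Eda2r at 3.02 and Ddit4 at 2.93 have the largest rises and the widest intervals.

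In the metabolism group 4 of 7 genes rose. Ddit4 and the sestrins encode inhibitors of the growth kinase mTORC1, and Ddit4 and Sesn2 are also known targets of the stress factor ATF4. Ddit4 was at 0.643, 0.610 and 0.901 CPM in controls and at 3.38 and 7.52 CPM in KO. The KO libraries differed 2.22-fold, and the rise was 7.61-fold with a 95% interval of 4.18 to 13.9 (edgeR adjusted p = 0.00318). Without KO replicate 2 its log2 fold change was 2.21 in place of 2.93.

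The 2 sestrin paralogues did not move together. Sesn2 was at 27.0, 33.0 and 32.1 CPM in controls and at 45.3 and 47.7 CPM in KO, a 1.52-fold rise (edgeR adjusted p = 0.00961). Sesn1 was at 80.7, 72.9 and 73.0 CPM in controls and at 68.1 and 57.4 CPM in KO. Both KO values of Sesn1 were below every control, as in 19.3% of genes tested, and its log2 fold change of -0.27 had an edgeR adjusted p of 0.124, which fell to 0.0137 when KO replicate 1 was left out and went to 0.439 when KO replicate 2 was. The ratio of Sesn2 to Sesn1 within a library was 0.335, 0.453 and 0.440 in controls and 0.665 and 0.832 in KO. The ratio was thus higher in both KO libraries than in any control; it was compared after the values of both genes were seen, and no test was made of it.

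Tigar, a phosphatase that slows glycolysis, was at 3.15, 2.13 and 2.15 CPM in controls and at 5.38 and 4.47 CPM in KO. Its 1.96-fold rise (edgeR adjusted p = 0.0275) missed the threshold without control replicate 2 or 3, without the filter and with DESeq2 (adjusted p 0.0269 to 0.119 over the alternatives). Fdxr, the mitochondrial reductase that feeds electrons to iron-sulfur cluster assembly, was at 9.27, 9.98 and 9.64 CPM in controls and at 13.1 and 18.0 CPM in KO. Its 1.62-fold rise (edgeR adjusted p = 0.0255) missed the threshold without any 1 control, without KO replicate 2 and without the filter (adjusted p 0.00282 to 0.123). Ak1, an adenylate kinase, was at 0.533 to 0.836 CPM in controls and at 0.999 and 0.842 CPM in KO and did not pass (edgeR adjusted p = 0.507). Ephx1, an epoxide hydrolase, had 5, 5 and 4 counts in controls and 7 and 14 in KO and was removed by the filter. Fitted without the filter, Ephx1 had an edgeR adjusted p of 0.19, and without KO replicate 1, where it met the filter, it passed (log2 fold change 1.44, adjusted p = 0.0431).

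No gene of the repair group passed the test. Xpc and Ddb2 recognise ultraviolet lesions for nucleotide excision repair. Xpc was at 18.1, 14.4 and 18.4 CPM in controls and at 17.5 and 21.1 CPM in KO, and the 95% interval of its fold change was 0.916 to 1.41. Ddb2 was at 17.8, 17.2 and 18.4 CPM in controls and at 18.8 and 20.2 CPM in KO, with an interval of 0.939 to 1.28. Acp2 on the opposite strand shares 652 of the 2736 exonic bases of Ddb2, and the sources used here do not say if reads were counted by strand. Acp2 had up to 332 counts in a library, beside 226 to 312 for Ddb2, so the part of Acp2 reads in the Ddb2 values is not known. Polk, a polymerase that copies past damaged bases, was at 25.0 to 25.4 CPM in controls and at 29.1 and 26.2 CPM in KO, with an interval of 0.954 to 1.26. Rrm2b, the p53-inducible ribonucleotide reductase subunit that supplies nucleotides for repair, was at 5.28, 4.80 and 5.06 CPM in controls and at 5.23 and 4.86 CPM in KO, with an interval of 0.791 to 1.26.

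In the signalling group Phlda3 and Eda2r rose and Gdf15 was removed by the filter. Phlda3 competes with AKT for membrane lipids and so restrains AKT signalling. It was at 3.60, 4.27 and 4.51 CPM in controls and at 19.9 and 15.6 CPM in KO, a 4.30-fold rise (log2 fold change 2.10 ± 0.16 (SE), edgeR adjusted p = 0.000257), the smallest adjusted p among the members. Eda2r, on the X chromosome, encodes a receptor of the TNF family for an ectodysplasin. It had 5, 2 and 8 counts in controls and 53 and 28 in KO, or 0.322, 0.152 and 0.555 CPM against 4.07 and 1.81 CPM. Its fold of 8.09 had a 95% interval of 3.80 to 17.2 (edgeR adjusted p = 0.00819). With all libraries this was the highest of the 29 tested members. Once KO replicate 1 was left out, Eda2r had a log2 fold change of 2.33 in place of 3.02, below Ddit4 at 3.35. The call was lost without control replicate 1 or 2 and without the filter (adjusted p 1.39e-05 to 0.0647). Gdf15, a secreted stress hormone of the TGF-beta family, had 0, 1 and 0 counts in controls and 6 and 8 in KO. Fitted without the filter, Gdf15 had an edgeR adjusted p of 0.0675.

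Scarce members had larger folds than abundant ones. Of the 15 tested members with a control mean under 10 CPM, 11 rose and their median log2 fold change was 1.30; among all 4979 tested genes at that level 7.27% rose. Of 7 members at 10 to 50 CPM 3 rose, with a median of 0.54, beside 4.90% of 4024 genes. Of 7 members at 50 CPM or more 1 rose, Gadd45a, with a median of 0.09, beside 2.75% of 3997 genes. The control level enters both quantities, and members under 0.693 CPM in controls were tested only because their KO values were high, so this is a description without a test. In level per kilobase of exon, Rps27l, Btg2 and Gadd45a led the controls at 116, 94.8 and 92.1 CPM per kb, and Pidd1 and Sesn1 followed at 25.3 and 18.97. In the KO libraries Gadd45a led at 136 CPM per kb, followed by Rps27l at 124 and Btg2 at 86.4. The lowest tested member was Eda2r, at 0.0582 CPM per kb in controls and 0.50 in KO. Summed over all 32 genes, the level was 1046 CPM ± 31.4 (SD, n = 3) in controls and 1262 CPM ± 13.8 (SD, n = 2) in KO.

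**Figure D3:**
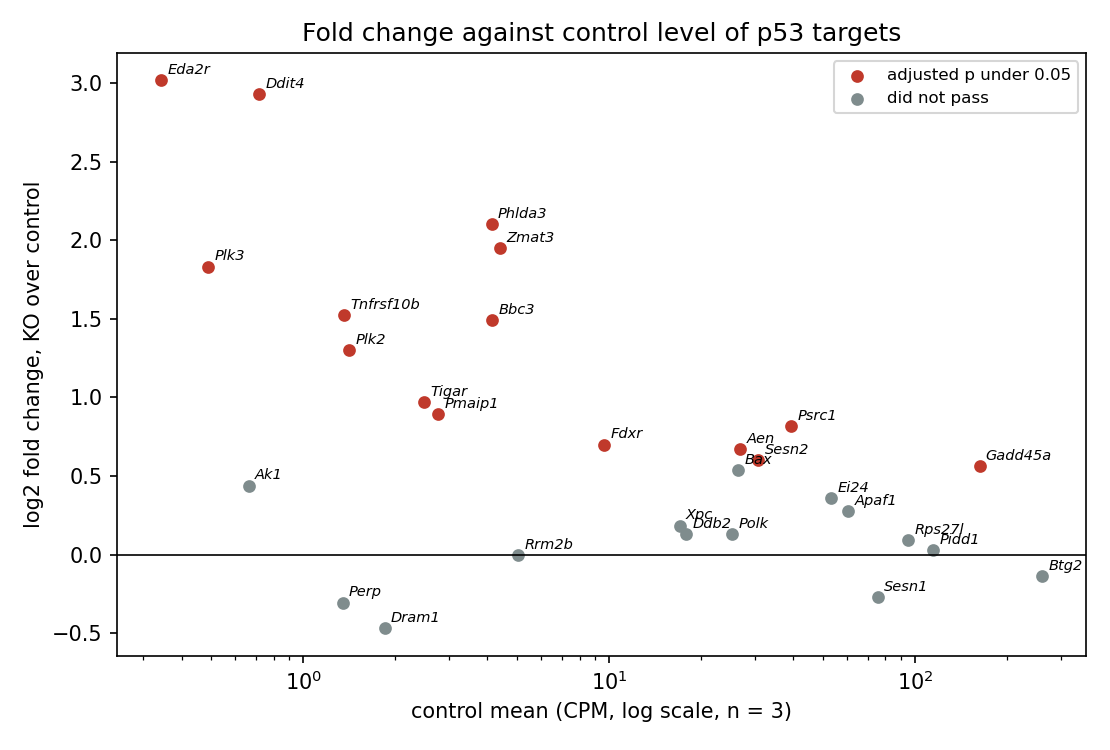
Log2 fold change of KO over control against the control mean (CPM, log axis, n = 3) for the 29 tested p53 targets; red marks adjusted p under 0.05. Eda2r and Ddit4, under 1 CPM in controls, lie near 3, and Btg2, at 260 CPM, lies at -0.13.

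Of the 15 genes that rose, 8 were higher in KO replicate 2 and 7 in KO replicate 1. Ddit4 (3.38 and 7.52 CPM) and Eda2r (4.07 and 1.81 CPM) were the 2 whose KO values differed by at least 1.5-fold, and they differed in opposite directions. Across all genes tested, 50.6% were higher in KO replicate 2. Without KO replicate 1, 1247 genes were called lower in place of 238 and 1709 higher in place of 669; without KO replicate 2, 101 were lower and 535 higher.

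Of the wider p53 pathway, 38 of 43 further regulators and targets were tested, with a median log2 fold change of 0.04. Of these 7 rose (18.4%) and 3 fell, where 5.15% of all genes tested rose and 1.83% fell. Trp53 itself was at 143, 173 and 160 CPM in controls and at 173 and 162 CPM in KO and did not pass (edgeR adjusted p = 0.627). Cdkn1a was at 4.57, 4.65 and 5.62 CPM in controls and at 87.6 and 67.9 CPM in KO, so its 15.7-fold rise exceeded that of every tested member. Ccng1, a cyclin G gene that p53 induces, was at 74.6 to 77.0 CPM in controls and at 111 and 108 CPM in KO (1.45-fold, edgeR adjusted p = 0.00271). Mdm2 was at 63.6 to 70.6 CPM in controls and at 89.0 and 79.4 CPM in KO (1.27-fold, edgeR adjusted p = 0.0436).

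The 3 that fell were Cd82, Steap3 and Trp53bp1, of which the first and second are known p53 targets. Cd82, a tetraspanin, was at 315, 330 and 323 CPM in controls and at 205 and 180 CPM in KO, 1.68-fold lower (edgeR adjusted p = 0.00164). Steap3, the endosomal iron reductase of erythroid cells, was at 266 to 313 CPM in controls and at 221 and 234 CPM in KO, 1.28-fold lower (edgeR adjusted p = 0.0432). Trp53bp1, a double-strand break protein gene, was at 194 to 201 CPM in controls and at 150 and 127 CPM in KO (edgeR adjusted p = 0.00899). Tubgcp4 on the opposite strand shares 2130 of the 14164 exonic bases of Trp53bp1. Tubgcp4 had up to 1799 counts in a library, beside 1954 to 3052 for Trp53bp1. Without knowing the use of strand, reads from the shared bases cannot be told apart. The number that fell was 1 without control replicate 1 or 2 and 9 without KO replicate 1, and the number that rose was 4 without control replicate 2 or 3.

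Of the 15 members that rose, 9 passed in each alternative fit that gave them an adjusted p: Bbc3, Aen, Tnfrsf10b, Zmat3, Plk3, Psrc1, Gadd45a, Ddit4 and Phlda3. Of these, Tnfrsf10b, Plk3 and Ddit4 were absent from the fit with at least 5 CPM in 2 libraries, and Plk3 had no adjusted p with DESeq2. Plk3 and Ddit4 also met the filter on low counts only through their KO values. Sesn2 missed the threshold only without the filter (adjusted p = 0.058; range over the alternatives 0.000499 to 0.058). The other 5, Pmaip1, Plk2, Tigar, Fdxr and Eda2r, missed it without at least 1 control library. Leaving out control replicate 1, 2 or 3 gave 11, 10 or 12 members that rose. Leaving out KO replicate 1 gave 17, with Bax and Ephx1 in addition. Leaving out KO replicate 2 gave 15, with Apaf1 and Ei24 in place of Pmaip1 and Fdxr. These are fits in which the lone KO library is assumed to vary like the controls. In the metabolism group the number was 2 without control replicate 2 or 3, and in the signalling group 1 without control replicate 1 or 2.

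**Figure D4:**
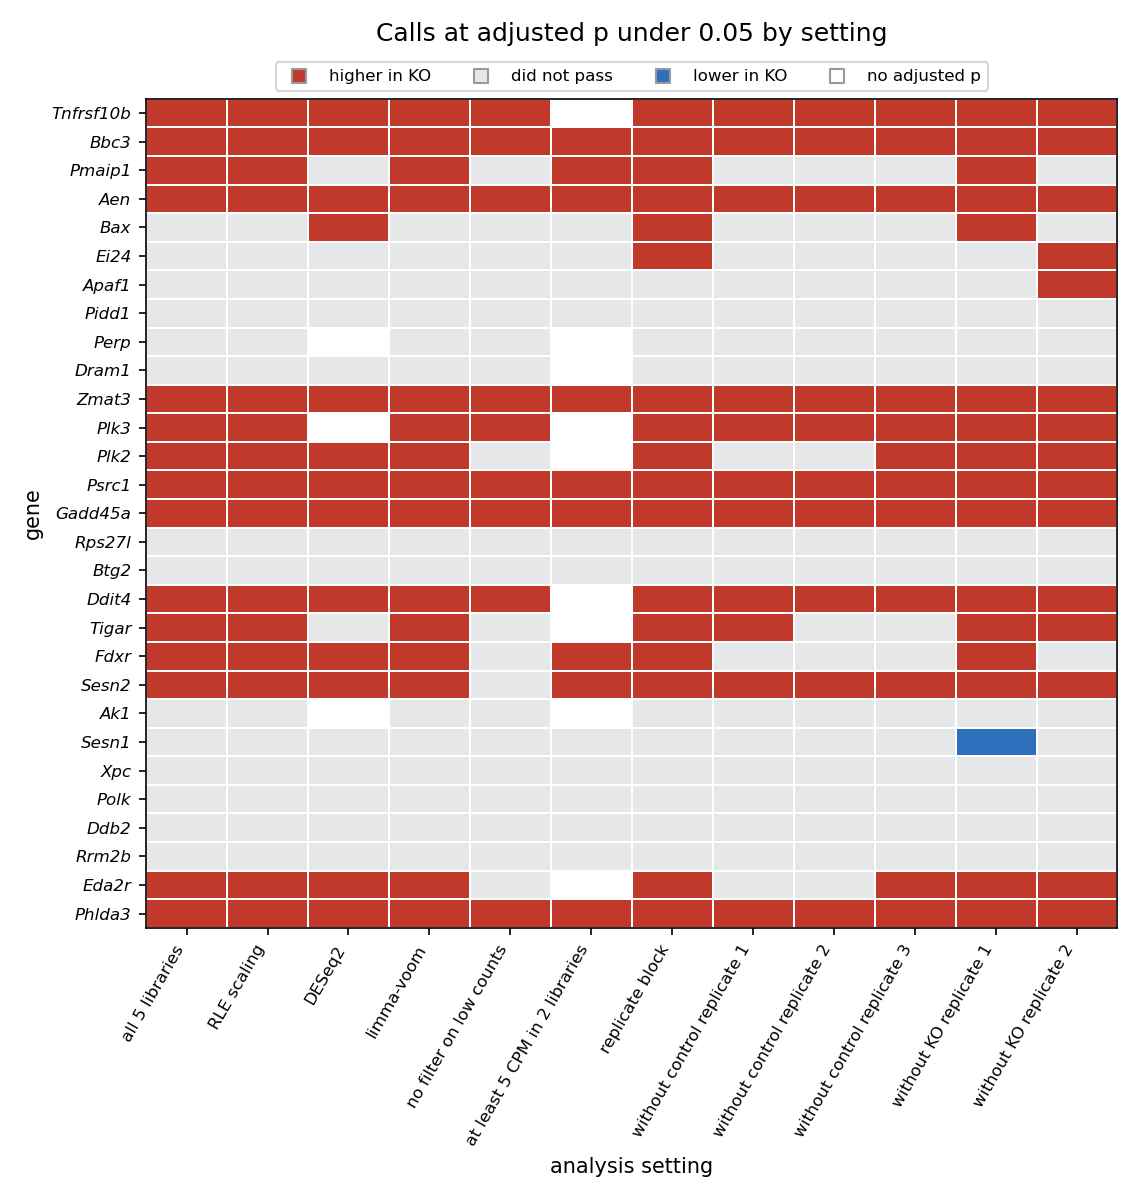
Calls of the 29 tested p53 targets at adjusted p under 0.05 (red higher, blue lower, grey not passed, white no adjusted p), with genes in rows and the fit with all 5 libraries and 11 alternatives in columns. Rows such as Zmat3 and Phlda3 are red throughout, and the only blue field is Sesn1 without KO replicate 1.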

How the data were processed

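Per the labels' protocols, TER119-positive cells were sorted, poly(A) RNA was selected and an Ion Proton was used for sequencing. The submitters' processing notes name cutadapt, STAR, Bowtie, HTSeq and build mm10; versions, settings and use of strand are not stated in the labels. The authors deposited whole-number counts per Ensembl gene, not normalised. Of 39179 identifiers 37607 matched a symbol in GENCODE M21, which also gave exon lengths and overlaps.

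Counts were tested with edgeR 4.0.16 (quasi-likelihood, TMM, filterByExpr with the group, 13000 genes kept, Benjamini-Hochberg over all of them, threshold 0.05), with the group as the design and 3 residual degrees of freedom. Alternatives were RLE scaling, DESeq2 1.42.0, limma-voom 3.58.1, no filter, at least 5 CPM in 2 libraries, the replicate number as a block, and each library left out. The steps were tested on simulated counts. A standard error is the log2 fold change divided by the square root of F. The 95% intervals use the t quantile for edgeR's total degrees of freedom, which exceed the 3 residual ones. The reads carry no molecular identifiers, so intervals reflect libraries and reads, not molecules.

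The members, lists, function groups and tests were chosen with earlier results of these data known. All members are named, with Csnk2b, Trp53, Mdm2, Cdkn1a and, of 43 further pathway genes, up to 3 higher and 3 lower with the smallest p. Of the genes this rule picks, 1 is not reported here. No library is a copy of another in its group, since each such pair differed by more than counting error allows.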

Additional observations from a re-analysis of the deposited data

How the results depend on the processing

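RLE scaling, DESeq2, limma-voom and the replicate block left the number of members that rose within 1.5 times of 15 (15, 13, 15 and 17). Without the filter 9 members rose (1 in metabolism, 1 in signalling), 4 other pathway genes rose, and 235 genes were higher and 53 lower over the whole table, where 21077 genes were tested. With at least 5 CPM in 2 libraries, which leaves 20 members, 9 rose (3 in arrest, 2 in metabolism, 1 in signalling) and the median log2 fold change of the members was 0.44 in place of 0.56. Leaving out 1 library gave 210 to 1709 genes higher and 31 to 1247 lower, 10 to 17 members higher and 0 to 1 lower, 3 to 5 higher in apoptosis, 4 to 5 in arrest, 2 to 5 in metabolism and 1 to 2 in signalling, 4 to 7 other pathway genes higher and 1 to 9 lower; the cause was not tested. The number of repair genes that passed was 0 in each fit run. Direction changed for 3 genes near 0, none of them called: Pidd1 (-0.0717 to 0.0988 over the fits without 1 library), Rrm2b (-0.0784 to 0.0438) and Rps27l (-0.0188 to 0.167). Of 307 pairs of a member and an alternative, 22 lost a call and 7 gained one.

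With the replicate number as a block, 17 members rose (Bax and Ei24 in addition), and 702 genes of the whole table were higher and 171 lower; Rrm2b went to 0.00156. Nothing in the labels says that equal numbers pair embryos. Deviations of same-numbered libraries from their group means correlated at 0.00161 and 0.0421. With 2 KO libraries the KO deviations mirror each other, so these correlations cannot decide if equal numbers pair embryos. DESeq2 gave no adjusted p for Plk3, Perp and Ak1. Fas, Ephx1 and Gdf15, with at most 14 counts in a library, were removed by the filter, and without it none passed (adjusted p 0.977, 0.19 and 0.0675).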
